A study of Mus musculus with 12 samples.

Results

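The ErbB family of receptor tyrosine kinases has 4 members in the mouse, Egfr, Erbb2, Erbb3 and Erbb4, and their RNA was followed in the cerebral cortex and hippocampal formation of pups from which Egfr had been conditionally deleted. The 4 genes were taken by name from 55357 genes counted in each of 12 libraries. cKO pups carried 2 floxed Egfr alleles and a Nestin-driven Cre recombinase (labelled NcreEGFRFF). Control pups are described as EgfrF/+ by the study, while their genotype label reads WT; the labels do not say whether control pups carried Cre, so a lost allele or an effect of Cre in either genotype cannot be told apart from these labels. Tissue was taken at postnatal day 5 and cut into a rostral and a caudal piece, and each genotype had 3 animals (cKO T3, T6 and T80; control T4, T8 and T70) with both pieces sequenced. Nestin drives recombination in neural progenitors and their descendants, so cells of other origin in the tissue, such as microglia and most vascular and meningeal cells, are not its main targets. Which exons the floxed alleles remove was not given in the sources used here.

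Ligands of the EGF and neuregulin groups bind these receptors at the cell surface, and the receptors then pair, phosphorylate one another and signal through the RAS-MAPK, PI3K-AKT and STAT pathways. EGFR binds EGF, TGFα, HB-EGF and related ligands. ErbB2 binds no known ligand and serves as a partner, ErbB3 binds neuregulins and has a weak kinase, and ErbB4 binds both neuregulins and some EGF-type ligands. In the postnatal cortex EGFR is known from progenitors and young glia, ErbB3 from oligodendrocyte lineage cells, and ErbB4 from inhibitory interneurons.

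On GRCm39, Egfr (ENSMUSG00000020122.17) lies at chr11:16702203-16868158 on the plus strand, with 11326 exonic bases. Erbb2 (ENSMUSG00000062312.6) lies on the same chromosome and strand at chr11:98303296-98328542, with 5210 exonic bases, 9 of which it shares with Mien1 on the opposite strand. Erbb3 (ENSMUSG00000018166.9) lies at chr10:128403392-128425521 on the minus strand, with 6016 exonic bases. Erbb4 (ENSMUSG00000062209.16) spans chr1:68071345-69147218 on the minus strand and has 12355 exonic bases.

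The 4 receptors are paralogs, and their sequences are shown for 1 stretch, the catalytic loop of the kinase domain. Each line gives 60 coding bases, 5′ to 3′, from exon 21 of the longest coding GENCODE transcript on GRCm38, an older build than that of the counts. Capitals mark the codon of the catalytic aspartate.
Egfr, chr11:16904320-16904379, plus strand: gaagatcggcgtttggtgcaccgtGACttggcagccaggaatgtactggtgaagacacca
Erbb2, chr11:98434229-98434288, plus strand: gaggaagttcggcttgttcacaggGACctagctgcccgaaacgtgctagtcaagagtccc
Erbb3, chr10:128572515-128572574, minus strand: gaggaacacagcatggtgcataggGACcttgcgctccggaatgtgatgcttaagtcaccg
Erbb4, chr1:68080721-68080780, minus strand: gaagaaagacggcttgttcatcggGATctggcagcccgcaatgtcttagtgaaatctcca
The marked codon was the same in Egfr, Erbb2 and Erbb3. Erbb4 differed there from Egfr by C27T, counted from 1 at the 5′ end of the stretch, and both spellings encode aspartate. Over the 60 bases, 61.7% were identical to Egfr in Erbb2, 63.3% in Erbb3 and 68.3% in Erbb4. Over the whole transcripts the longest run that Egfr shared with any of the other receptors was 20 bases, and the longest between any pair was 22 bases, against reads of 50 bases. A read lying wholly in the transcript of one receptor thus had no exact copy in these transcripts of another.

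Libraries held 43810458 to 87170315 counts, and the receptors 60 to 132 counts for Erbb3, 202.5 to 667 for Erbb2, 263 to 3812 for Egfr and 4173 to 8512 for Erbb4. Several cKO libraries stood apart from the rest. Mitochondrial transcripts took 8.18% of counts in the rostral library of cKO T6, against 1.85% to 3.98% in the other libraries. A region score was built from the 2492 genes that separated control regions, scaled so that control rostral libraries average 0 and control caudal ones 1. It was 0.854, -0.0804 and 0.639 in the libraries labelled rostral of cKO T3, T6 and T80, and 0.563, 1.14 and 0.811 in their caudal libraries, so in T3 the labelled regions stood in the opposite order. Cell type marker lists were summed per library in CPM (counts scaled for library size, with trimmed-mean factors across the 12 libraries). The 6 meningeal fibroblast markers summed to 19.6 CPM in T6 rostral and 75.4 CPM in T3 caudal, against 332 to 517 CPM in the other 4 cKO libraries and 111 to 354 CPM in the control libraries. Fold changes of the receptors between genotypes within a region, between cKO regions and in the interaction are given with and without these libraries where leaving them out changed the sign or the call.

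Egfr RNA was 23.3% of the control level in cKO pups when both pieces of each animal were summed. The summed level was 8.60, 10.2 and 11 CPM in cKO T3, T6 and T80, and 44.0, 39.5 and 44.5 CPM in control T4, T8 and T70. The groups were far apart and every cKO animal kept a measurable amount. The log2 fold change was -2.10 (SE 0.11), and edgeR's quasi-likelihood test gave an adjusted p of 0.0019 after Benjamini-Hochberg correction over all genes. Egfr ranked 1 by p-value among 22928 genes tested, of which 41 (0.179%) were called at an adjusted p under 0.05, 22 of them (0.096%) lower. In whole tissue, fewer cells of a type and less RNA per cell cannot be told apart. The p-values rest on 3 animals a genotype and weigh the difference against the spread between animals, estimated partly from all genes.

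Within rostral cortex Egfr was at 10.3, 6.37 and 12.6 CPM in cKO T3, T6 and T80, against 41.8, 39.7 and 48.9 CPM in control T4, T8 and T70. Within caudal cortex it was at 5.81, 14.6 and 9.49 CPM in the same cKO animals, against 45.4, 39.1 and 40.2 CPM in the same controls. All cKO libraries lay below all control libraries in both regions. Of all genes tested, 19.7% in rostral and 22.6% in caudal cortex did not overlap between genotypes. The log2 fold change was -2.14 (SE 0.25) in rostral and -2.05 (SE 0.31) in caudal cortex, but with libraries of a single region the adjusted p from edgeR was 0.186 and 0.102, above the threshold. In rostral cortex 0 of 20599 genes (0%) were called by edgeR, while 1955 (9.49%) had an unadjusted p under 0.05, and DESeq2 called 394. In caudal cortex 17 of 20705 genes (0.0821%) were called. Without cKO T6 the rostral log2 fold change was -1.92 with an adjusted p of 0.0027 from edgeR, and without cKO T3 it was -2.19 with an adjusted p of 0.230. In caudal cortex it was -1.78 (adjusted p 0.0192, edgeR) without cKO T3 and -2.43 (adjusted p 0.0306, edgeR) without cKO T6. The fold changes of the 2 regions differed by 0.10 (SE 0.41, edgeR interaction, adjusted p 1.0), and by 0.15 (SE 0.24, adjusted p 0.840) without T6 rostral and T3 caudal. The interaction test took both pieces of an animal as separate samples.

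**Figure D1:**
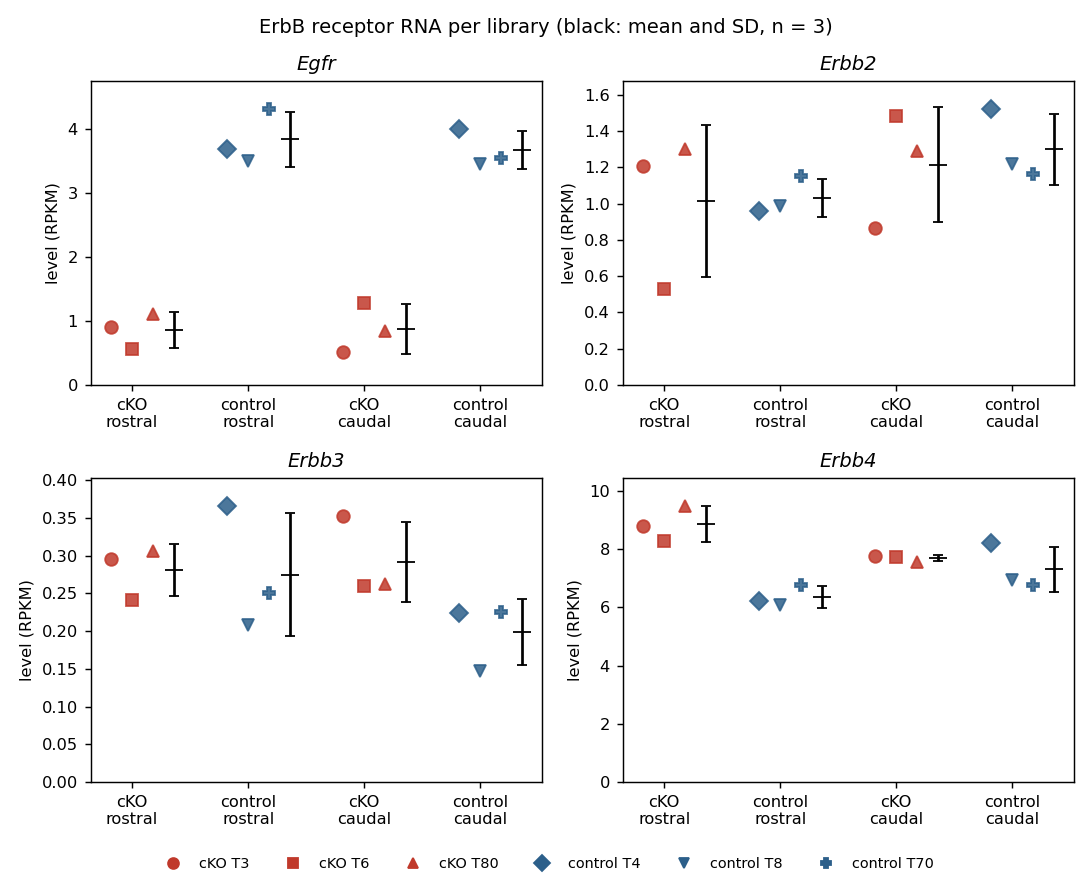
RNA level per exon length (RPKM, the CPM per kilobase of exon) of each receptor in each library, with a panel per gene and symbols for the animals; black bars are the mean and SD of 3 libraries. Egfr sat between 0.513 and 1.29 RPKM in the cKO libraries and between 3.46 and 4.32 RPKM in the control libraries. On this scale Erbb4 was higher in cKO than in control rostral cortex without overlap.

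The remaining Egfr RNA varied more among cKO than among control libraries. The coefficient of variation was 32.4% in cKO rostral and 11.1% in control rostral cortex, and 44.3% in cKO caudal and 8.01% in control caudal cortex. Counting error alone would give 3.91% in cKO rostral and 4.37% in cKO caudal cortex. No animal was low in both pieces: T6 had the lowest rostral and the highest caudal value, and T3 the lowest caudal value. The log2 ratio of caudal over rostral Egfr was -0.82, 1.20 and -0.41 in cKO T3, T6 and T80, against 0.12, -0.02 and -0.28 in control T4, T8 and T70. The lowest pair of cKO libraries, T3 caudal and T6 rostral, were also the pair with the lowest meningeal fibroblast sums given above, and their endothelial markers summed to 140 and 141 CPM, against 209 to 230 CPM in the other 4 cKO libraries. Some glial sums were low in this pair too, and others were not. Markers of oligodendrocyte precursors summed to 320 CPM in T3 caudal and 286 CPM in T6 rostral, against 335 to 424 CPM in the other 4 cKO libraries, and those of Schwann cells and neural crest to 18.5 and 15.1 CPM, against 22.5 to 25.1 CPM. Astrocyte markers summed to 888 CPM in T6 rostral, the lowest of all libraries, while T3 caudal, at 1989 CPM, lay within the 1713 to 2666 CPM of the other cKO libraries. Oligodendrocyte markers summed to 64.4 CPM in T6 rostral and 98.4 CPM in T3 caudal, against 75.4 to 115 CPM in the other 4 cKO libraries. For microglia markers the sums were 78.6 CPM in T6 rostral and 158 CPM in T3 caudal, against 138 to 212 CPM. The part of meningeal, vascular or glial cells in the remaining Egfr RNA was not tested. The values are counts per gene, so intact Egfr RNA and RNA of a recombined allele cannot be told apart.

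**Figure D2:**
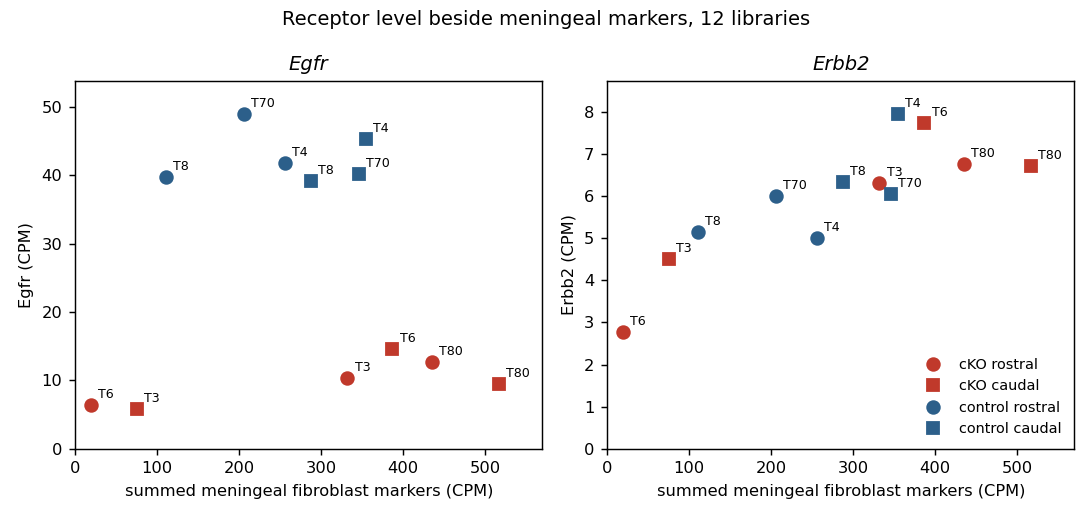
CPM of Egfr (left) and Erbb2 (right) against the summed CPM of 6 meningeal fibroblast markers, with a point per library labelled by animal. T6 rostral and T3 caudal had the lowest sums, at 19.6 and 75.4 CPM, with Egfr at 6.37 and 5.81 CPM and Erbb2 at 2.77 and 4.51 CPM.

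Erbb4 was the most abundant receptor per length and the only other one whose summed level did not overlap between genotypes. It was at 104, 97.8 and 105 CPM in cKO T3, T6 and T80, against 91.7, 80.8 and 83.5 CPM in control T4, T8 and T70. The log2 fold change was 0.26 (SE 0.07), with an adjusted p of 0.20 from edgeR, so this difference did not pass the threshold over all genes; of all genes tested, 25.9% did not overlap between genotypes. Without cKO T6 it was 0.29 with an adjusted p of 0.0437 from edgeR, and DESeq2 on all animals gave an adjusted p of 0.0465. Without any other single animal the adjusted p from edgeR lay between 0.211 and 0.560.

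The Erbb4 values were farthest apart in rostral cortex. They were 109, 102 and 117 CPM in cKO T3, T6 and T80, against 76.6, 75.2 and 83.6 CPM in control T4, T8 and T70. The 3 cKO rostral values also lay above the 6 control libraries of both regions, whose range was 75.2 to 101 CPM. This separation depended on the scaling. TPM instead scales the counts per exon length of each library to the same total. By TPM, Erbb4 in rostral cortex was at 27.3, 18.6 and 29.7 in cKO T3, T6 and T80. In control T4, T8 and T70 it was at 19.7, 18.4 and 21.2, so T6 overlapped with the controls. The rostral log2 fold change was 0.49 (SE 0.09, edgeR adjusted p 0.310), and 19.7% of the genes tested did not overlap between genotypes there. Without cKO T6 it was 0.53 with an adjusted p of 0.0102 from edgeR, and without cKO T3 it was 0.49 with an adjusted p of 0.362. In caudal cortex Erbb4 was at 95.9, 95.6 and 93.3 CPM in the cKO animals and 101, 85.8 and 83.6 CPM in the control animals. These overlapped, with a log2 fold change of 0.08 (SE 0.08, edgeR adjusted p 0.700). The caudal minus rostral difference of the Erbb4 fold changes was -0.41 (SE 0.13); its unadjusted p was 0.00734 and its adjusted p 1.0 by edgeR. That test, which took both pieces of an animal as separate samples, called 0 of 21599 genes (0%). By it 767 (3.55%) had an unadjusted p below 0.05, and DESeq2 gave 14 calls. Without T6 rostral and T3 caudal the difference was -0.44 (SE 0.12, edgeR adjusted p 0.189).

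Markers of cortical interneurons, the cells Erbb4 is best known from, also had a larger median fold change in rostral than in caudal cortex. In rostral cortex the 8 markers summed to 290 to 426 CPM in cKO and 218 to 297 CPM in control libraries, overlapping slightly, with the highest sum in cKO T6. Among the cKO rostral libraries the order was not that of Erbb4. T6 had the lowest Erbb4, at 102 CPM, and T80, with the lowest marker sum, had the highest, at 117 CPM. In caudal cortex they summed to 285 to 406 CPM in cKO and 302 to 409 CPM in control libraries. Their median rostral log2 fold change was 0.35, against 0.0382 over all genes, and 6 of 8 were positive. By edgeR and DESeq2 0 of 8 passed there, while 3 had an unadjusted p under 0.05 by edgeR, all higher, against 9.49% of all genes in either direction: Adarb2 (0.34), Sst, which encodes somatostatin (0.88), and Gad1, which makes GABA (0.46). These 3 are named for that p. Slc32a1 and Vip averaged lower in cKO rostral libraries, at 25.0 against 29.5 CPM and 5.04 against 5.62 CPM in control. In caudal cortex the median was 0.00472, against 0.00446 over all genes. The interaction was negative for 7 of 8 markers, with a median of -0.34 against -0.0285 over all genes, and 0 had an unadjusted p under 0.05 or were called by DESeq2. The same list was higher in the caudal than in the rostral piece of control cortex, with a median log2 fold change of 0.37. Over all genes that median was 0.00427. There 6 of 8 were positive, and edgeR called 2 higher and 1 lower, against 12.2% of all genes. Region scores of the rostral libraries were 0.854 in cKO T3 and 0.639 in cKO T80, against a control rostral mean of 0. The parts of interneurons and of the place of the cut in the Erbb4 values were not tested.

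Erbb2, the partner without a ligand of its own, had no difference between genotypes that passed the test. It was at 5.63, 5.11 and 6.77 CPM in cKO T3, T6 and T80, against 6.8, 5.76 and 6.02 CPM in control T4, T8 and T70 with both pieces summed. The log2 fold change was -0.09 (SE 0.13, edgeR adjusted p 0.757). By region it was -0.02 (SE 0.33, adjusted p 0.985, edgeR) in rostral and -0.09 (SE 0.20, adjusted p 0.866, edgeR) in caudal cortex. The lowest Erbb2 values were again those of cKO T6 rostral, at 2.77 CPM, and cKO T3 caudal, at 4.51 CPM. The other cKO libraries held 6.31 to 7.74 CPM and the control libraries 5.0 to 7.94 CPM. Without cKO T6 the rostral log2 fold change was 0.29, the opposite sign, and without cKO T3 the caudal one was 0.0958, also the opposite sign (edgeR adjusted p 0.242 and 0.747). The part of the meningeal and endothelial cells in this was not tested.

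Erbb3, which binds neuregulins and marks oligodendrocyte lineage and Schwann cells, was the scarcest receptor. It was at 1.91, 1.49 and 1.71 CPM in cKO T3, T6 and T80, against 1.69, 1.07 and 1.42 CPM in control T4, T8 and T70 with both pieces summed, and these overlapped. The log2 fold change was 0.29 (SE 0.20, edgeR adjusted p 0.492). In caudal cortex it was at 2.12, 1.56 and 1.58 CPM in the cKO animals, against 1.34, 0.889 and 1.36 CPM in the control animals. These did not overlap, as was so for 22.6% of the genes tested, and the log2 fold change was 0.55 (SE 0.23, unadjusted p 0.0419, edgeR adjusted p 0.328). The highest value was that of T3 caudal. Without cKO T3 the log2 fold change was 0.39 (unadjusted p 0.122, edgeR), without control T8, the lowest control, 0.37 (unadjusted p 0.145, edgeR), and without any other single animal 0.61 to 0.64 (unadjusted p 0.0345 to 0.0525, edgeR). In rostral cortex it was 0.04 (SE 0.27, edgeR adjusted p 0.954), 0.15 without cKO T6 and -0.00194 without cKO T3. The depth limits this receptor, since 60 to 132 counts carry a counting error that averaged 9.18% to 11% of the level by group.

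Most markers of the oligodendrocyte lineage were lower in cKO pups beside these Erbb3 values. The 6 oligodendrocyte markers summed to 64.4 to 115 CPM in cKO libraries and 136 to 177 CPM in control libraries. The 6 precursor markers summed to 286 to 424 CPM in cKO libraries and 399 to 544 CPM in control libraries. With both pieces summed, 5 of the 6 precursor markers were lower and 1 was higher. By edgeR 2 passed, both lower: the transcription factor genes Olig1 (log2 fold change -0.90, SE 0.07, edgeR adjusted p 0.0115) and Olig2 (-0.59, SE 0.07, edgeR adjusted p 0.0382). Over all genes 0.096% passed with a lower level. Cspg4 averaged 40.3 CPM in cKO and 40.4 CPM in control rostral libraries, and 36.9 and 34.1 CPM in caudal ones. Pdgfra averaged 161 and 195 CPM in rostral and 162 and 176 CPM in caudal libraries, with overlap in both regions. By edgeR 0 of the 6 oligodendrocyte markers passed, while 5 of the 6 had an unadjusted p under 0.05, all lower, against 7.17% of all genes that were lower with such a p. DESeq2 called 4 of 6 in each list, all lower, against 1.58% of all genes called lower by it. Markers of Schwann cells and neural crest summed to 15.1 to 25.1 CPM in cKO libraries and 13.6 to 21.4 CPM in control libraries. The part of cell numbers in the Erbb3 values was not tested.

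**Figure D3:**
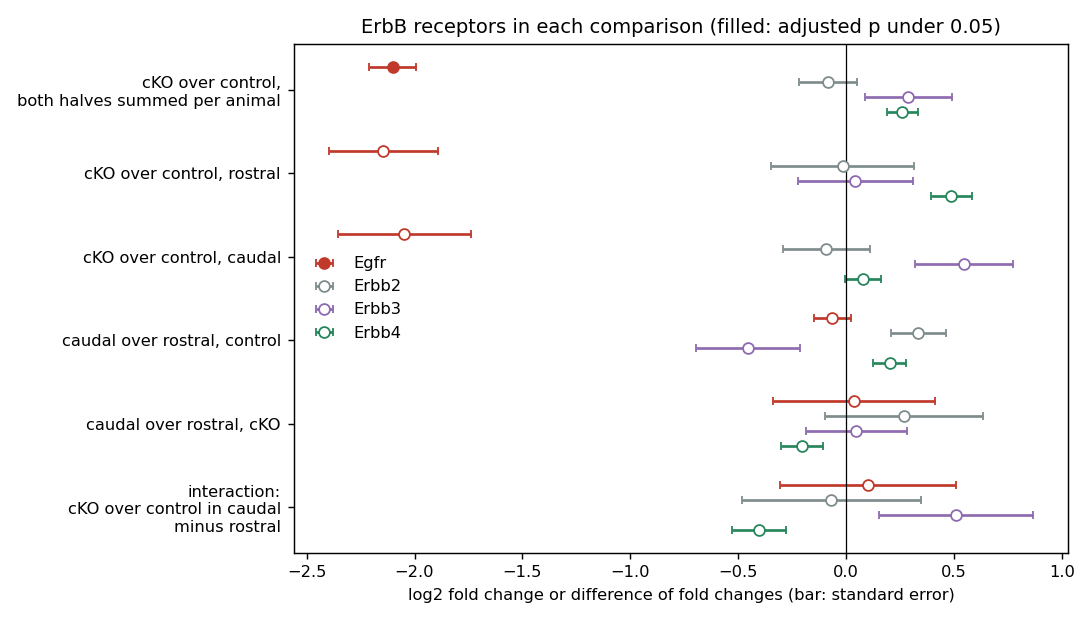
Log2 fold change of each receptor in each comparison, with bars of 1 standard error and a filled symbol for an adjusted p under 0.05 (edgeR); the lowest block is the difference of fold changes between regions. The single filled symbol is Egfr with both pieces summed, at -2.10.

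The order of the receptors was compared as RPKM, which divides the level by exon length. In rostral cortex Erbb4 averaged 8.85 ± 0.61 RPKM in cKO and 6.35 ± 0.36 RPKM in control pups (SD, n = 3 each). Egfr averaged 0.863 ± 0.280 RPKM in cKO and 3.84 ± 0.43 RPKM in control pups. Erbb2 averaged 1.01 ± 0.42 RPKM in cKO and 1.03 ± 0.11 RPKM in control pups, and Erbb3 0.281 ± 0.035 RPKM in cKO and 0.275 ± 0.082 RPKM in control pups. In control rostral cortex the order was therefore Erbb4, Egfr, Erbb2 and Erbb3, with no overlap between neighbours. In cKO rostral cortex Egfr and Erbb2 overlapped (0.562 to 1.1 and 0.531 to 1.30 RPKM), and the other neighbours did not.

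Caudal cortex had the same order in the control pups. Erbb4 averaged 7.69 ± 0.11 RPKM in cKO and 7.30 ± 0.78 RPKM in control pups (SD, n = 3 each), and Egfr 0.880 ± 0.390 RPKM in cKO and 3.67 ± 0.29 RPKM in control pups. Erbb2 averaged 1.21 ± 0.32 RPKM in cKO and 1.30 ± 0.20 RPKM in control pups, and Erbb3 0.292 ± 0.053 RPKM in cKO and 0.199 ± 0.044 RPKM in control pups. In cKO caudal cortex Egfr and Erbb2 overlapped again (0.513 to 1.29 and 0.866 to 1.49 RPKM).

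Taken as a share of the summed RPKM of the 4 receptors, Egfr made up 7.70% ± 1.68 in cKO and 33.3% ± 1.1 in control rostral cortex, and 8.60% ± 3.28 in cKO and 29.5% ± 0.8 in control caudal cortex (SD, n = 3 each). Erbb4 made up 80.8% ± 4.7 in cKO and 55.3% ± 1.1 in control rostral cortex, and 76.5% ± 5.0 in cKO and 58.5% ± 0.6 in control caudal cortex. In both regions the cKO and control shares of these receptors did not overlap, but shares are tied to one another, so a lower share of Egfr raises the others. The summed level itself was 11 ± 1.3 RPKM in cKO and 11.5 ± 0.9 RPKM in control rostral cortex, and 10.1 ± 0.7 RPKM in cKO and 12.5 ± 1.3 RPKM in control caudal cortex.

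**Figure D4:**
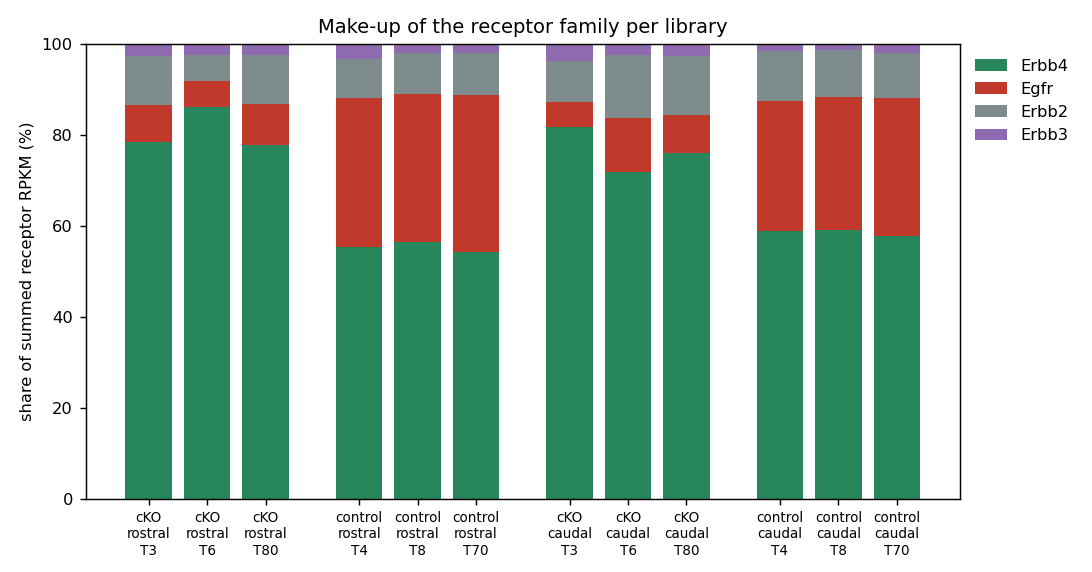
Share of each receptor in the summed RPKM of the 4 receptors, as a stacked bar per library. Egfr took 5.41% to 12% in the cKO libraries and 28.7% to 34.6% in the control libraries, and Erbb4 was the largest part of every bar.

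Between regions of control cortex no receptor passed the test, although 2492 of 20461 genes (12.2%) did. Both pieces came from the same animals and the test took them as separate samples. Erbb2 was at 7.94, 6.34 and 6.05 CPM in caudal and 5.0, 5.14 and 6.01 CPM in rostral cortex of T4, T8 and T70. Its log2 fold change of caudal over rostral was 0.33 (SE 0.13, edgeR adjusted p 0.118), without overlap, as for 31.4% of the genes tested. Meningeal fibroblast markers were higher in the caudal piece too: all 6 had a positive caudal over rostral fold change in controls, with a median of 0.70 on the log2 scale against 0.00427 over all genes. By edgeR 0 passed the threshold and 3 had an unadjusted p under 0.05, which 25.8% of all genes had, and DESeq2 called 2, against 13.8% of all genes. By animal, the meningeal sum in T70 was 206 CPM rostral and 346 CPM caudal, with Erbb2 at 6.01 and 6.05 CPM. In T4 it was 256 and 354 CPM, with Erbb2 at 5.0 and 7.94 CPM. In T8 it was 111 and 287 CPM, with Erbb2 at 5.14 and 6.34 CPM. Both were thus higher in the caudal piece of all 3 animals, by unlike amounts. Choroid plexus and hippocampal markers were also all higher in the caudal piece, with medians of 2.07 and 0.84, and edgeR called 3 and 4 of 5. The part of any of these tissues in the Erbb2 values was not tested. Erbb4 had a log2 fold change of 0.20 (SE 0.08, edgeR adjusted p 0.123), Erbb3 -0.46 (SE 0.24, edgeR adjusted p 0.268) and Egfr -0.06 (SE 0.09, edgeR adjusted p 0.693). Within single animals, the log2 ratio of caudal over rostral Erbb3 was 0.25, 0.10 and -0.22 in cKO T3, T6 and T80, against -0.71, -0.50 and -0.15 in control T4, T8 and T70. It was thus negative in all 3 control animals. In cKO T3 the labelled pieces stood in the opposite order on the region score, so the sign of its ratio rests on the labels. The edgeR interaction test did not use these ratios and took the pieces as separate samples. By it the Erbb3 difference between genotypes was 0.51 (SE 0.36, edgeR adjusted p 1.0), and 0.27 (SE 0.36, edgeR adjusted p 0.803) without T6 rostral and T3 caudal.

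Between regions of cKO cortex edgeR called 0 of 20944 genes (0%), 348 (1.66%) had an unadjusted p under 0.05, and DESeq2 called 4. The log2 fold change of caudal over rostral was -0.20 for Erbb4 (SE 0.10), 0.27 for Erbb2 (SE 0.37), 0.05 for Erbb3 (SE 0.23) and 0.04 for Egfr (SE 0.38), each with an adjusted p of 1.0 by edgeR. The Erbb4 values did not overlap, as for 5.76% of the genes tested. Without the rostral library of T6, the values were -0.24 for Erbb4, -0.03 for Erbb2, -0.04 for Erbb3 and -0.18 for Egfr, so the last 3 changed sign. Without that library and the caudal one of T3 they were -0.24 for Erbb4, 0.17 for Erbb2, -0.19 for Erbb3 and 0.09 for Egfr.

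The ligands came next. Of 11 ErbB ligand genes, 10 could be tested with both pieces summed and 0 passed the threshold by edgeR; 3 had an unadjusted p under 0.05, all lower. Of all genes tested 15.4% had such a p, and 7.17% had one with a lower level. Hbegf, which encodes HB-EGF, had the smallest p: 14.7 ± 0.4 CPM in cKO and 18.7 ± 0.5 CPM in control pups (SD, n = 3 each), a log2 fold change of -0.35 (SE 0.07, edgeR adjusted p 0.121). The next was Tgfa, which encodes TGFα, at 34.1 ± 4.3 CPM in cKO and 54.8 ± 17.0 CPM in control pups, a log2 fold change of -0.69 (SE 0.21, edgeR adjusted p 0.237). Tgfa spanned 21.8 to 35.9 CPM in cKO and 36.9 to 83.8 CPM in control rostral cortex. In caudal cortex it overlapped, at 34.5 to 43.5 CPM in cKO and 38.1 to 65.4 CPM in control pups. All 6 striatal markers were lower in cKO rostral cortex, with sums of 62.9 to 82.8 CPM against 89.8 to 244 CPM in control. The part of striatal tissue in the Tgfa values was not tested. Hbegf spanned 14.2 to 15.2 CPM in cKO and 18.2 to 18.8 CPM in control rostral cortex, and 14.6 to 15.0 CPM in cKO and 18.1 to 19.8 CPM in control caudal cortex. The groups did not overlap in either region, as was so for 19.7% of all genes tested in rostral and 22.6% in caudal cortex. The adjusted p from edgeR for Hbegf was 0.394 in rostral and 0.159 in caudal cortex. DESeq2, tried for the lists after the edgeR counts were seen, called Hbegf in all 3 comparisons (adjusted p 0.000913 summed, 0.0374 rostral, 0.0105 caudal), and Tgfa summed (adjusted p 0.0387) and in rostral cortex (adjusted p 0.0477), each lower; it called 3.5% of all genes summed, 1.91% in rostral and 2.5% in caudal cortex. Beside Hbegf, the smallest p among ligands was that of Tgfa in rostral cortex (log2 fold change -1.07, edgeR adjusted p 0.416) and of Btc, which encodes betacellulin, in caudal cortex (-1.57, edgeR adjusted p 0.193), where Btc had as few as 4 counts in a library. Ereg, which encodes epiregulin, had too few counts to be tested in any comparison.

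Genes that release or traffic the ligands did not pass either: of 5 tested with both pieces summed, 0 were called by edgeR or DESeq2 and 0 had an unadjusted p under 0.05. The smallest p values were those of Rhbdf2, an inactive rhomboid that accompanies the sheddase ADAM17 (log2 fold change 0.43, SE 0.23, edgeR adjusted p 0.396), and Bace1, a protease that cleaves neuregulin 1 (-0.11, SE 0.06, edgeR adjusted p 0.425).

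Of 30 genes for adaptors and kinases downstream of the receptors, 0 passed in cKO against control by edgeR, 5 had an unadjusted p under 0.05, near the 15.4% of all genes, and their median log2 fold change was 0.00489, against 0.0183 over all genes. Stat3, a transcription factor activated by EGFR among others, was at 55.7 ± 3.0 CPM in cKO and 45.7 ± 0.4 CPM in control pups (SD, n = 3 each; log2 fold change 0.29, SE 0.06, edgeR adjusted p 0.148). Hras, a RAS GTPase, was at 55.6 ± 0.8 CPM in cKO and 64.2 ± 1.5 CPM in control pups (log2 fold change -0.21, SE 0.06, edgeR adjusted p 0.201). By region the smallest p values belonged to Map2k1, which encodes the kinase MEK1, and Stat3 in rostral cortex (log2 fold changes -0.37 and 0.24), and to Pik3ca, a catalytic subunit of PI3K, and Map2k1 in caudal cortex (0.24 and -0.34); by edgeR 0 passed, and 1 of 30 in rostral and 5 of 30 in caudal cortex had an unadjusted p under 0.05, against 9.49% and 14.5% of all genes. DESeq2 called Stat3 (adjusted p 0.0166) and Map2k1 (adjusted p 0.0419) with both pieces summed, 0 in rostral cortex, and Pik3ca in caudal cortex (adjusted p 0.0383). Of all genes it called 3.5% summed, 1.91% in rostral and 2.5% in caudal cortex.

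Of 14 genes that restrain the receptors or are induced as feedback, 0 passed by edgeR, while 3 had an unadjusted p under 0.05, near the 15.4% of all genes. Lrig1, which promotes the degradation of ErbB receptors, was at 43.8 ± 4.5 CPM in cKO and 52.8 ± 3.8 CPM in control pups (SD, n = 3 each; log2 fold change -0.27, SE 0.09, edgeR adjusted p 0.271). Socs3, a feedback inhibitor of STAT signalling, was at 3.40 ± 0.93 CPM in cKO and 2.36 ± 0.15 CPM in control pups (log2 fold change 0.53, SE 0.20, edgeR adjusted p 0.287). By region, Socs3 and Errfi1, an inhibitor that binds the EGFR kinase domain, had the smallest p in rostral cortex (log2 fold changes 0.92 and 0.23). In caudal cortex these were Dusp6, a phosphatase of ERK, and Cblb, a ubiquitin ligase for activated receptors (0.34 and 0.19). By edgeR 0 passed in either region, with adjusted p values of 0.489, 0.524, 0.159 and 0.274 in that order, and 1 rostral and 2 caudal genes of the list had an unadjusted p under 0.05, near the 9.49% and 14.5% of all genes. DESeq2 called 0 with both pieces summed, 0 in rostral cortex and Dusp6 in caudal cortex (adjusted p 0.0156), against 3.5%, 1.91% and 2.5% of all genes.

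**Figure D5:**
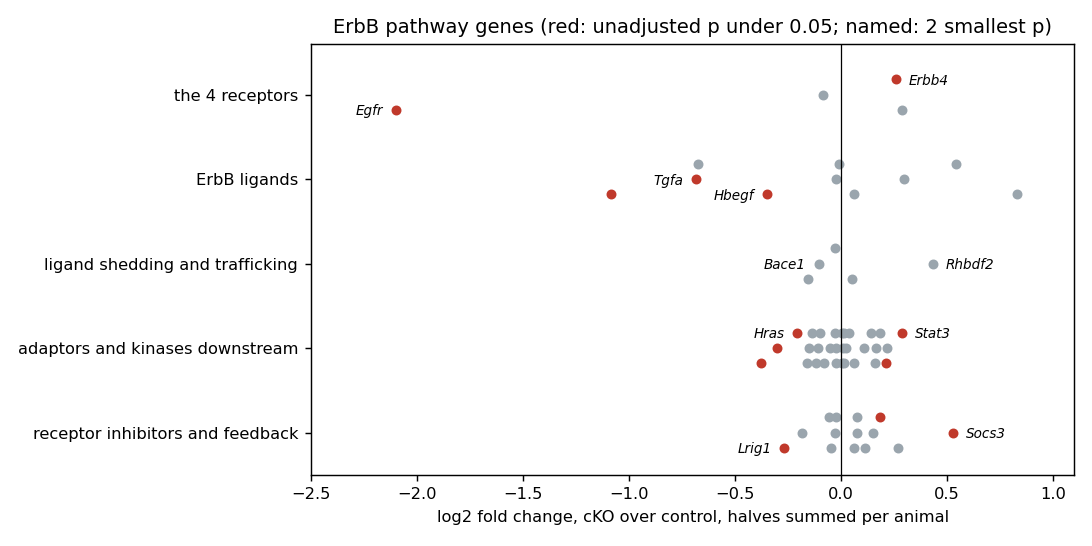
Log2 fold change of cKO over control, both pieces summed, for the 4 receptors and the tested genes of 4 lists of pathway genes; each point is a gene, red marks an unadjusted p under 0.05, and the 2 genes with the smallest p in each row are named. Egfr stands at -2.10, and Hbegf, Tgfa, Stat3, Hras, Lrig1 and Socs3 lie at -0.35, -0.69, 0.29, -0.21, -0.27 and 0.53.

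The same lists held genes that differed between regions of control cortex, where 5.88% of all genes tested fell and 6.3% rose in the caudal piece. Of the 9 ligands tested there, 2 fell in the caudal piece: Nrg1, at 14.4 ± 1.1 CPM in caudal and 18.3 ± 1.2 CPM in rostral cortex (SD, n = 3 each; log2 fold change -0.35, edgeR adjusted p 0.0179), and Nrg3, at 65.0 ± 0.7 CPM in caudal and 74.7 ± 2.1 CPM in rostral cortex (-0.20, edgeR adjusted p 0.0219). Both encode neuregulins, ligands of ErbB3 and ErbB4. Of the 30 adaptors and kinases 5 fell and 0 rose in the caudal piece; among them were Pik3r1, the regulatory subunit of PI3K (-0.36), Nras, a RAS GTPase (-0.18), and Pik3ca (-0.22), with edgeR adjusted p values between 0.00117 and 0.042. Of the 14 feedback genes, Socs3 (0.69, edgeR adjusted p 0.00748) and Lrig3, a relative of Lrig1 (0.64, edgeR adjusted p 0.0321), rose, and Cblb (-0.21, edgeR adjusted p 0.0367) fell. Among the shedding genes 0 of 5 passed by edgeR or DESeq2 and 0 had an unadjusted p under 0.05; Adam10, a sheddase (-0.09), and Bace1 (0.08) had the smallest p. Between regions of cKO cortex 0 genes of the 4 lists passed by edgeR or DESeq2 and 0 had an unadjusted p under 0.05.

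Other genes were ranked by Pearson's r of log2 CPM with each receptor over the 12 libraries, among 13731 genes; the libraries share genotype, animals and RNA quality, so the values are descriptive. Egfr was most like Ednrb, the endothelin B receptor (r = 0.97; 89.2 CPM on average in cKO and 181 CPM in control libraries), Ampd3, an AMP deaminase (0.96), Ephx2, an epoxide hydrolase (0.95), and Olig1 (0.95), and all 4 averaged lower in cKO libraries. Over the 6 control libraries alone the genes most like Egfr were different ones, Rad51c, Sall1, Rock2 and Cul4b (r = 0.99 each), and their averages were 3.75 to 97.0 CPM in those libraries. Erbb2 was most like Slc19a1, a folate carrier (0.98), Soat1 (0.98), and the receptors Notch2 (0.97) and Fzd2 (0.96). Erbb3 reached lower values, with Trmt13 (0.81), Mtmr1 (0.80), Foxo3 (0.79) and Arntl2 (0.78). Erbb4 was most like 4 genes known from immune cells, Ptprc, which encodes CD45 (0.94), Ly86 (0.93), Csf2rb (0.91) and Msr1 (0.91). Each was scarce and averaged higher in cKO libraries, for example 5.43 CPM in cKO and 2.48 CPM in control libraries for Ptprc. The 6 microglia markers summed to 78.6 to 212 CPM in cKO libraries and 105 to 149 CPM in control libraries, with the lowest value in T6 rostral, where Erbb4 was at 102 CPM.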

How the data were processed

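Messenger RNA was captured, and libraries were read as pairs of 50 bases, per the labels' protocols. STAR 2.7.8a, featureCounts 2.0.3 and GRCm39 are named in the submitters' processing notes. Strand handling, gene models and the treatment of reads of several origins are in no label or file header. The deposited values are counts per gene that need not be whole (9.69% to 14.3% of the gene values of a library, zeros included, have a fraction), so they were handled like estimated or expected counts, although whole counts had been planned for, and rounded before each test.

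Tests used edgeR 4.0.16 (filterByExpr, TMM scaling, robust quasi-likelihood) in R 4.3.3, with Benjamini-Hochberg adjustment over all genes tested and a threshold of 0.05; a standard error is the log2 fold change divided by the square root of F. DESeq2 1.42.0 and limma 3.58.1 (voom) were alternatives. The code was tested on simulated data. For cKO against control both pieces of an animal were summed, and each region was also fitted alone, as were the regions within each genotype and their interaction. The main fits between regions and of the interaction held no term for the animal. CPM in those fits is scaled within each fit and differs slightly from that over the 12 libraries; means ± SD of ligands and other pathway genes come from the fits, and receptor values per library from the 12-library scaling. RPKM divides CPM by the deposited exon length.

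The T number in the titles names the animal, so rostral and caudal libraries are paired; the correlation of their deviations from the group means, over 21599 genes, was 0.262, 0.238 and 0.328 in control T4, T8 and T70 and 0.0362, -0.00379 and 0.454 in cKO T3, T6 and T80. Sex, read from sex-linked transcripts, was 1 female and 2 males in cKO and 2 females and 1 male in control.

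The receptors, the pathway lists and the marker lists were chosen with earlier results of these data known. Named pathway genes are those past the threshold (the 4 with the smallest p where there were more), or else the 2 with the smallest p; for each receptor the 4 genes with the highest r are named, among genes with a mean of at least 1 CPM. A gene that this rule selects is not reported here. Where a symbol had several rows, the longest was used. Sequences came from GENCODE transcripts on GRCm38; the pattern used to find the catalytic loop was widened after the first one matched no Erbb3 transcript. Protein sequences were not used here.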

Additional observations from a re-analysis of the deposited data

How the results depend on the processing

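Over 316 alternative fits of the receptors, 272 kept the direction and the side of the threshold, 18 passed where the reported edgeR test did not, and 26 changed sign, with none of these 26 past the threshold. For Egfr with both pieces summed, all 15 alternatives passed, from -2.18 to -2.01 without single animals (T80 and T3 of the cKO), with an adjusted p of at most 0.0304. Egfr in rostral cortex passed under DESeq2 (-2.15), without a filter on low counts (-2.15), with voom library weights (-1.93), and in 1 fit over all 12 libraries (-2.16), and ranged from -2.38 to -1.92 without single animals. In caudal cortex it passed under DESeq2 (-2.05) and voom library weights (-2.15), and ranged from -2.43 to -1.78. Erbb4 with both pieces summed passed under DESeq2 (0.26) and voom library weights (0.30), and ranged from 0.23 to 0.31 without single animals; in rostral cortex it passed under DESeq2 (0.48), voom library weights (0.55) and 1 fit over 12 libraries (0.48), and ranged from 0.43 to 0.53. Between control regions Erbb2 (0.34) and Erbb4 (0.21) passed only without the filter. The cause was not tested. Erbb2 in rostral cortex changed sign with sex in the model (0.00373) and with voom library weights (0.27). With the replicate block (the animal as a term) no receptor's call changed, and Egfr between cKO regions changed sign (-0.0266). Of the alternatives added after seeing the data, leaving out T6 rostral turned the sign between cKO regions of Egfr (-0.18), Erbb2 (-0.0317) and Erbb3 (-0.0420) and of the Egfr interaction (-0.10); leaving out T3 caudal as well turned that of Erbb3 (-0.19).

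Ranges without single animals that crossed 0 were -0.21 to 0.00148 (summed), -0.24 to 0.29 (rostral), -0.27 to 0.10 (caudal), -0.21 to 0.62 (between cKO regions) and -0.54 to 0.28 (interaction) for Erbb2; -0.12 to 0.30 (rostral) and -0.0586 to 0.18 (between cKO regions) for Erbb3; and -0.57 to 0.36 (between cKO regions), -0.16 to 0.0528 (between control regions) and -0.50 to 0.42 (interaction) for Egfr. Counts of called genes moved far more than the receptors did. With both pieces summed, 41 genes became 1 to 803 under the other settings and 1 to 687 without single animals; in rostral cortex 0 became 0 to 920 and 0 to 1058; in caudal cortex 17 became 1 to 517 and 0 to 162; between control regions 2492 became 2206 to 3514 and 1079 to 1690; between cKO regions 0 became 0 to 4 and 0; for the interaction 0 became 0 to 39 and 0 to 475. Without division by length, the mean share of Egfr was above that of Erbb2 in cKO cortex (7.63% and 4.10% rostral, 8.71% and 5.56% caudal). With division by length the order of these means was the reverse in both regions, with overlap between the receptors, so their order depended on this step. Depth limits Erbb3 most, and 3 animals a genotype limit all of the tests.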
